A study of Homo sapiens with 6 samples.

Results

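The RNA that an anti-LARP1 antibody recovered from the free 40S gradient fraction of HCT116 cells was compared, gene by gene, with the RNA recovered by normal rabbit serum IgG. The libraries were chosen by their titles: 2 LARP1 immunoprecipitates (LARP1 IP) and 2 control immunoprecipitates (IgG IP), which are 4 of the 6 libraries of the series. The other 2 libraries, the RNA of the fraction before any antibody was added (Input), were used in the fit (count filter, scaling factors and shared estimate of spread) and as a scale of abundance outside the contrast. HCT116 is an established human line grown from a colorectal carcinoma. Its libraries carry no label of a genotype change, drug or time point, so the antibody is the difference the labels give between the IP groups. The labels call the replicates biological but do not say whether separate cultures were used. The p-values below therefore reflect only how far these libraries differ from each other, which may be technical.

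LARP1 is an RNA-binding protein of the La-related family. It is known for binding the cap and the adjoining pyrimidine tract of mRNAs with a terminal oligopyrimidine (TOP) start, a class that holds the mRNAs of ribosomal proteins and many translation factors, and for repressing their translation when the kinase mTOR is inactive. The free 40S fraction of a sucrose gradient holds small ribosomal subunits that are not part of assembled ribosomes. A control serum recovers RNA that sticks to beads or antibody, and the comparison sets the LARP1 IP against that background. The files name genes by Ensembl ID only, and the gene table at hand named 0 of the 60554 IDs. Genes are therefore described by their levels and fold changes, at most 2 IDs are printed in each direction, gene families could not be counted, and the markers of colon epithelium were not checked.

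Total counts were 5211809 and 4135463 in the LARP1 IP and 7356269 and 8069554 in its control. The 2 most abundant genes, ranked by counts summed across libraries, took 26.6% and 21.3% of the LARP1 IP libraries but 70.9% and 71.5% of the IgG IP libraries, which left 3823470 and 3256012 counts for all other genes in the LARP1 IP and 2144182 and 2299877 in the IgG IP. These totals do not give the counting error of a typical gene. Genes called higher below took 69.6% and 78.6% of these other counts in the LARP1 IP. At an equal level in CPM (counts scaled to library size, with TMM factors), a gene had fewer counts in the LARP1 IP. A sum of 3 counts over the group stood for 0.201 CPM there and 0.144 CPM in the IgG IP. In Input the 2 most abundant genes took 88.6% and 87.9%. The IgG IP replicates differed in how evenly the remaining counts were spread: 189 genes held 50 percent of them in IgG replicate 1 and 50 genes did so in IgG replicate 2, against 49 and 39 genes in the LARP1 IP. The third gene in that ranking alone took 6.20% of the remaining counts in IgG replicate 1 and 17.03% in IgG replicate 2, and 0.714% and 0.629% in the LARP1 IP.

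The antibody against LARP1 and the control serum recovered RNA of different composition. Of 10788 genes tested, 921 were higher in the LARP1 IP than in the IgG IP and 247 were lower, which is 8.54% and 2.29% of the tested genes (edgeR's quasi-likelihood test, Benjamini-Hochberg adjusted p under 0.05). Among the higher genes, 610 exceeded 4-fold, and among the lower genes 83 exceeded 4-fold. The median log2 fold change of the higher genes was 2.35 and their highest quartile began at 3.25, while that of the lower genes was -1.82. The higher genes stood at a median of 20.2 and 28.6 CPM (counts scaled to library size, with TMM factors) in LARP1 replicates 1 and 2, against 5.17 and 6.05 CPM in IgG replicates 1 and 2. The lower genes stood at 3.99 and 3.53 CPM in the LARP1 IP and 14.9 and 11.6 CPM in the IgG IP. These medians describe genes that the same libraries selected and are not evidence beyond the calls.

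The numbers called depended on single libraries and on the scaling, and more for the lower than for the higher genes. Leaving out IgG replicate 1 gave 579 higher and 128 lower genes, and leaving out LARP1 replicate 2 gave 578 and 138. Without Input replicate 1 or 2, which enter the count filter, the scaling and the spread but not the contrast, 65 and 89 genes were lower of 11562 and 11621 tested, and the fit of the 4 IP libraries alone called 681 higher and 80 lower. All 681 and all 80 were among the 921 and the 247. Scaling by total counts gave 1004 higher and 75 lower genes. Scaling by the counts outside the 2 most abundant genes moved the median log2 fold change of all genes from -0.06 to -1.28 and gave 333 higher and 4186 lower genes. All 333 were among the 921. Each fold change is thus measured against the typical gene of these libraries, and the absolute amount of RNA recovered by either antibody is unknown.

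The counts of the LARP1 IP were concentrated in the strongly enriched genes. Outside the 2 most abundant genes, the 921 higher genes took 69.6% and 78.6% of the counts of LARP1 replicates 1 and 2, 14.8% and 16.5% of the IgG IP replicates, and 19.4% and 17.9% of the Input replicates. The 108 genes with a log2 fold change over 4 alone took 34.2% and 40.4% in the LARP1 IP, against 4.01% and 5.05% in the IgG IP. At the other end, the 1286 genes with a log2 fold change between -2 and -1 took 5.06% and 3.38% in the LARP1 IP and 27.6% and 26.8% in the IgG IP. These classes were cut from the same contrast, so the shares show composition and not enrichment. With 2 libraries against 2, an exact permutation test of any such share cannot give a two-sided p below 0.33.

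**Figure D1:**
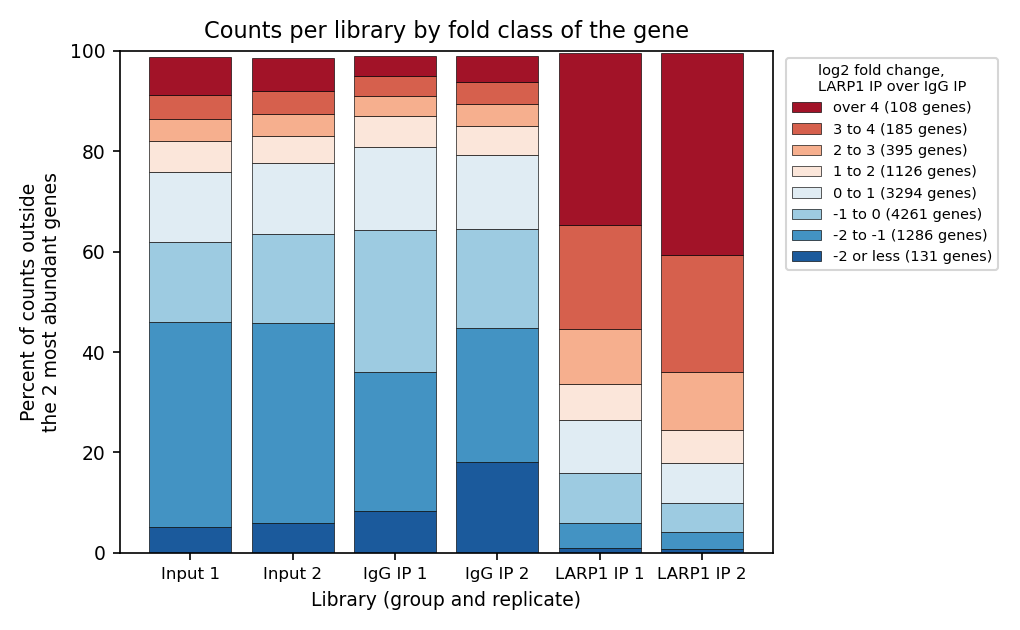
Percent of each library's counts outside the 2 most abundant genes (vertical axis), by library, in stacked classes of the gene's log2 fold change in LARP1 IP over IgG IP. In the LARP1 IP libraries the class over 4 holds 34.2% and 40.4%, and in the IgG IP libraries 4.01% and 5.05%; the space above the bars is genes that were not tested.

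Input gives an abundance scale that the contrast did not use, and recovery by the LARP1 antibody was unevenly spread along it. Among the 55 genes between 300 and 1000 CPM in Input, 42 were higher in the LARP1 IP (76.4%, against 8.54% of all tested genes) and 4 were lower, with a median log2 fold change of 3.84. Among the 90 genes between 100 and 300 CPM, 43 were higher (47.8%) and 8 lower, with a median of 0.98. The share of higher genes was smaller in the bands below. It was 15.7% of 466 genes between 30 and 100 CPM and 11.1% of 2217 genes between 10 and 30 CPM, where the median log2 fold changes were 0.11 and -0.04. Genes of a higher band also had more reads, and the part of read depth in the shares called was not tested.

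Among the genes with the highest level in Input, more were lower than higher in the LARP1 IP. Of the 26 genes over 1000 CPM in Input, 14 were lower in the LARP1 IP (53.8%, against 2.29% of all tested genes), 5 were higher and 7 passed in neither direction. The 14 lower genes had log2 fold changes from -2.94 to -1.38. The 5 higher genes ranged from 2.80 to 4.26. All 10 genes with the highest level in Input were lower in the LARP1 IP. The 14 lower calls fell to 4 without Input replicate 1, 3 without Input replicate 2 and 4 in the fit of the 4 IP libraries, while the median log2 fold change of the band stayed at -1.44, -1.48 and -1.48, against -1.48 with all libraries. The 42 higher calls between 300 and 1000 CPM became 40 to 43 under all 15 alternatives.

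**Figure D2:**
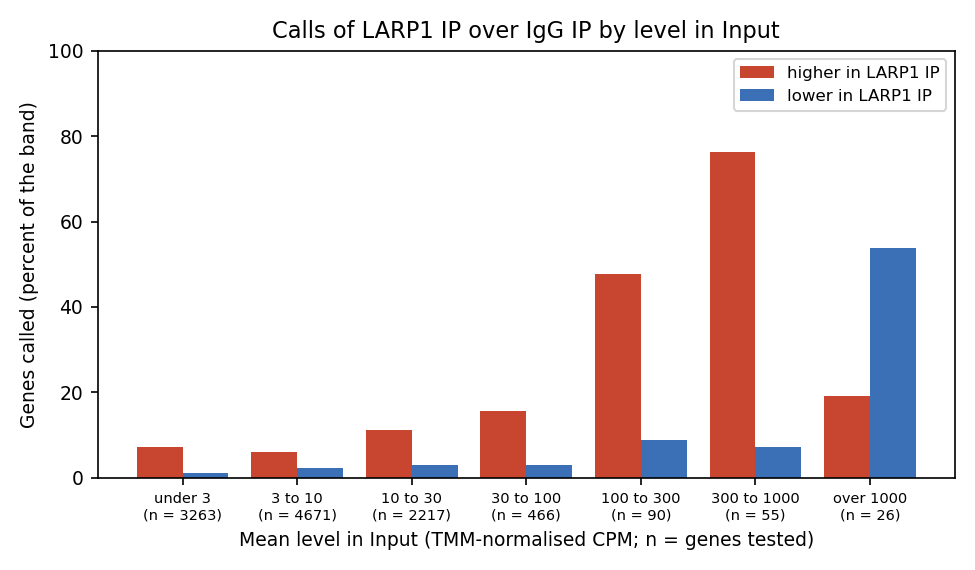
Percent of tested genes called higher (red) or lower (blue) in LARP1 IP over IgG IP (vertical axis), in bands of the mean CPM in the 2 Input libraries (horizontal axis, with the number of genes per band). Higher calls peak at 76.4% between 300 and 1000 CPM, and lower calls at 53.8% over 1000 CPM.

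A change of scaling moves the log2 fold changes of all genes nearly together. The positions of the bands relative to all genes could therefore hardly change with it, and the values below are no check. The median log2 fold change of the 300 to 1000 CPM band lay 3.91 above that of all tested genes with TMM, 3.87 above it with total counts and 3.87 above it with the counts outside the 2 most abundant genes. The band over 1000 CPM lay at -1.41, -1.42 and -1.36 relative to all genes in the same order. The last value covers 24 genes, without the 2 most abundant, and the other values cover 26. Below 10 CPM in Input the shares called higher were 6.02% of 4671 genes (3 to 10 CPM) and 7.08% of 3263 genes (under 3 CPM). Many genes of the lowest band passed the count filter only through an IP group, among them 52 tested genes with no Input count, of which 29 were called higher, so its share is not read further. CPM values are not divided by gene length, so a band mixes short genes with many molecules and long genes with fewer.

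Between 100 and 1000 CPM in Input, fewer genes lay at a log2 fold change between 1 and 3 than on either side. Of these 145 genes, 71 had a log2 fold change over 3 in the LARP1 IP over the IgG IP, all 71 called higher. Only 17 lay between 1 and 3, and the other 57 lay below 1. The 71 genes, which the cut at 3 bounds from below, had quartiles of 3.89 and 4.31 around a median of 4.12 and a maximum of 4.74. Between 10 and 100 CPM, in contrast, 54 of 2683 genes had a log2 fold change over 3, and the number of genes fell steadily with the fold: 861 between 0 and 1, 310 between 1 and 2, 112 between 2 and 3, 51 between 3 and 4, and 3 over 4. The range between 1 and 3 was thinner but not empty, and no test was made of it.

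**Figure D3:**
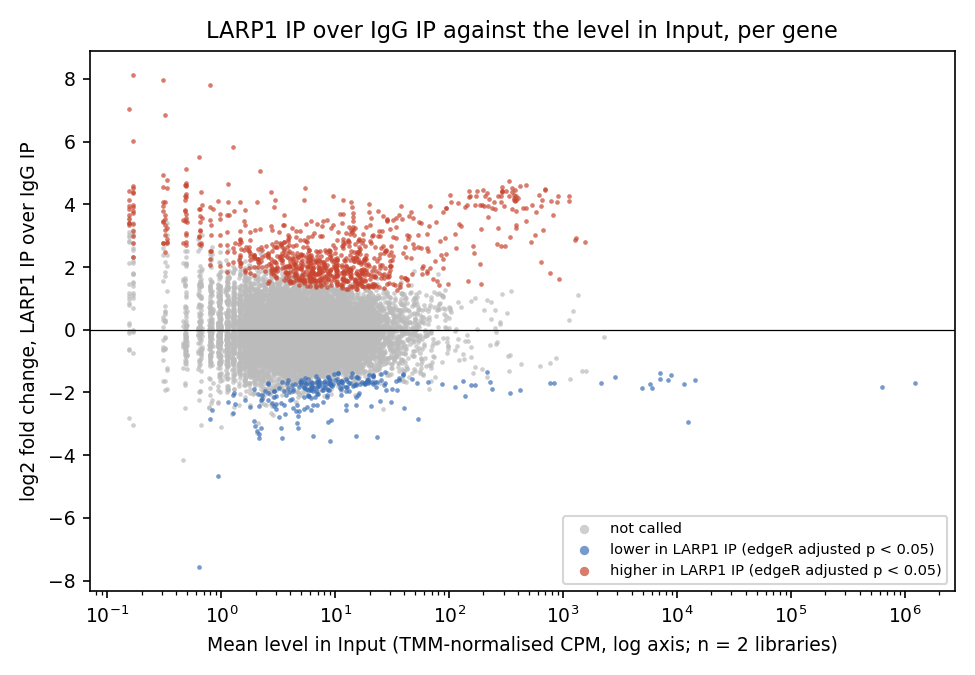
Log2 fold change of LARP1 IP over IgG IP (vertical axis) against the mean level in the 2 Input libraries (horizontal log axis, TMM-normalised CPM), 1 point per tested gene, without the 52 genes that have no Input count. Between 100 and 1000 CPM, 71 of 145 genes lie over 3 on the log2 scale, and at the far right the 10 genes of highest level lie between -2.94 and -1.38.

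Genes picked as enriched in some libraries were then followed in libraries that had no part in the choice. With 1 CPM added to each value, 107 genes exceeded 8-fold in LARP1 replicate 1 over IgG replicate 1. In LARP1 replicate 2 over IgG replicate 2, which share no library with the first pair, these 107 genes had a median log2 ratio of 4.01, and 106 exceeded 2-fold and 103 exceeded 8-fold. Picked the other way, 180 genes exceeded 8-fold in the replicate 2 libraries. In the replicate 1 libraries they had a median of 3.19, and all 180 exceeded 2-fold and 103 exceeded 8-fold. With libraries crossed, 84 genes exceeded 8-fold in LARP1 replicate 1 over IgG replicate 2, and in LARP1 replicate 2 over IgG replicate 1, 81 of them exceeded 2-fold and 75 exceeded 8-fold. In the reverse choice 241 genes were picked, of which 227 exceeded 2-fold and 75 exceeded 8-fold. By counts outside the 2 most abundant genes, which lowers all ratios together, 56 genes exceeded 8-fold in the replicate 1 libraries, and in the replicate 2 libraries 54 of them exceeded 2-fold and 19 exceeded 8-fold. All genes given here are counted over the 10788 tested genes. The share of all genes over 2-fold in single pairs was not counted. Libraries of 1 number may share handling.

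Depleted genes were followed in the same way. Of 109 genes under 0.25 times the control in the replicate 1 libraries, 40 were also under 0.5 times the control in the replicate 2 libraries, with a median log2 ratio of -0.84. Of 38 such genes in the replicate 2 libraries, 29 were under 0.5 times the control in the replicate 1 libraries, with a median of -1.48. With crossed libraries, 22 of 99 and 47 of 315 were under 0.5 times the control in the other libraries. The medians were -0.32 and 0.10, and 36 of the 99 and 169 of the 315 lay above the control. The share of all genes under 0.5 times the control in single pairs was not counted. In the fit, outside the 2 most abundant genes, 131 genes had a log2 fold change of -2 or less and 1286 between -2 and -1. These counts follow the scaling: by counts outside the 2 most abundant genes, which lowers all ratios together, 1330 genes were under 0.25 times the control in the replicate 1 libraries and 1249 of them were under 0.5 times it in the replicate 2 libraries. Over all 10788 genes the log2 ratios of the same-numbered libraries had a Pearson correlation of 0.778 and a Spearman correlation of 0.690 across genes, and those of the crossed libraries 0.432 and 0.311. Genes are not independent replicates, and the ratios of a gene share its length, base composition and level, so these values only describe the libraries.

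**Figure D4:**
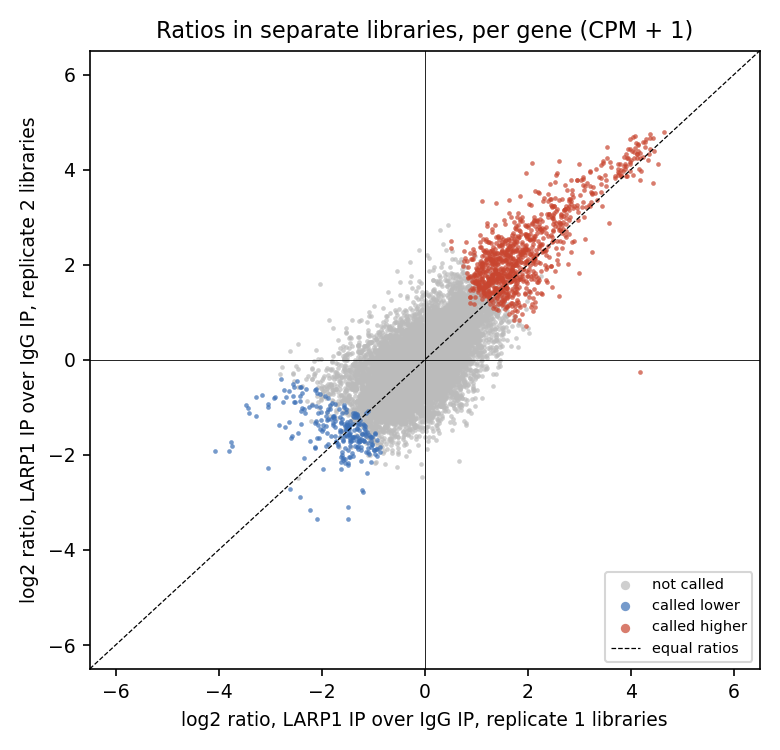
Log2 ratio of LARP1 IP over IgG IP in the replicate 1 libraries (horizontal axis) and in the replicate 2 libraries (vertical axis), with 1 CPM added, 1 point per tested gene; the dashed line marks equal ratios. Of the 107 genes beyond 8-fold on the horizontal axis, 103 are beyond it on the vertical axis. Of the 109 genes under 0.25 times the control on the horizontal axis, 40 are under 0.5 times it on the vertical axis.

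The replicates of a group also differed from each other in a directed way. Of the 921 higher genes, 773 had more CPM in LARP1 replicate 2 than in LARP1 replicate 1, against 5996 of all 10788 tested genes. The median log2 difference (replicate 1 minus replicate 2) was -0.56, against -0.10 over all tested genes. The LARP1 replicates differed by over 2-fold for 194 of the 921, with replicate 2 the higher in 186. Over all tested genes, replicate 2 was over 2-fold higher for 822 and replicate 1 for 775. The same 921 genes leaned the same way in the IgG IP. There 613 were higher in replicate 2 and 297 in replicate 1, with a median difference of -0.16, against -0.01 over all tested genes. Among the 247 lower genes it was the IgG IP that was uneven. Of them, 51 genes were over 2-fold higher in IgG replicate 1 and 14 were over 2-fold higher in IgG replicate 2. Over all 10788 tested genes the numbers were 640 and 437. The higher and the lower genes were called from these same libraries, and the part of that choice in these differences was not tested. The 51 genes had median levels of 27.4 CPM in IgG replicate 1, 9.72 CPM in IgG replicate 2, 5.62 CPM in Input, and 4.09 and 3.91 CPM in the LARP1 IP. The 182 lower genes whose control libraries lay within 2-fold of each other stood at 12.4 and 11.6 CPM with control IgG and 8.96 CPM in Input, with 3.93 and 3.26 CPM in the LARP1 IP.

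The gene with the highest fold change under the naming rule (past the threshold, at least 10 CPM in the LARP1 IP and no overlap between the groups), ENSG00000105640.12, stood at 3783 and 6463 CPM in LARP1 replicates 1 and 2, 150 and 233 CPM in IgG replicates 1 and 2, and 406 and 265 CPM in the Input libraries. Both LARP1 libraries lay far above all 4 others. Its log2 fold change over the IgG IP was 4.74 ± 0.51 (SE; edgeR adjusted p = 0.000179), and it ran from 3.50 to 5.09 over the alternatives, all past the threshold. The second gene, ENSG00000177600.8, reached 3251 and 6888 CPM in the LARP1 IP, 157 and 255 CPM with control IgG, and 521 and 419 CPM in Input. Its log2 fold change was 4.62 ± 0.52 (SE; edgeR adjusted p = 0.000179). The rule required no overlap between the groups, and LARP1 replicate 2 was the higher library for both genes. It was also the higher one for all 15 highest genes under the rule, whose log2 fold changes ran from 4.41 to 4.74. For each of the 15 the lower LARP1 library stood at least 8.43 times above the higher IgG library, and 13 of the 15 exceeded 1000 CPM in the LARP1 IP.

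The gene with the lowest fold change under the naming rule (at least 10 CPM in the IgG IP and no overlap), ENSG00000116731.22, stood at 4.41 and 2.98 CPM in the LARP1 IP, 74.6 and 14.1 CPM with control IgG, and 7.04 and 10.9 CPM in Input. Its log2 fold change was -3.56 ± 0.68 (SE; edgeR adjusted p = 0.00481) and -1.90 without IgG replicate 1 (edgeR adjusted p = 0.0302). The second lowest, ENSG00000090061.17, had 8.92 and 4.46 CPM in the LARP1 IP, 132 and 18.2 CPM with control IgG, and 4.03 and 2.79 CPM in Input. Both LARP1 libraries were below both IgG libraries for each gene, as the rule required, but IgG replicate 1 stood well apart from every other library. The log2 fold change of ENSG00000090061.17 was -3.46 ± 0.74 (SE; edgeR adjusted p = 0.00914). It missed the threshold without IgG replicate 1 (-1.41, edgeR adjusted p = 0.138), without Input replicate 1 (-3.42, 0.0526) and in the fit of 4 libraries (-3.45, 0.0501). Under that rule the 15 lowest genes ran from -3.56 to -2.57, while called genes below 10 CPM reached lower fitted values, and 10 of the 15 were higher in IgG replicate 1 than in IgG replicate 2. They include the third most abundant gene, at 2863 and 3812 CPM in the LARP1 IP and 12276 and 38869 CPM in the IgG IP (log2 fold change -2.94 ± 0.53, SE; edgeR adjusted p = 0.00348).

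**Figure D5:**
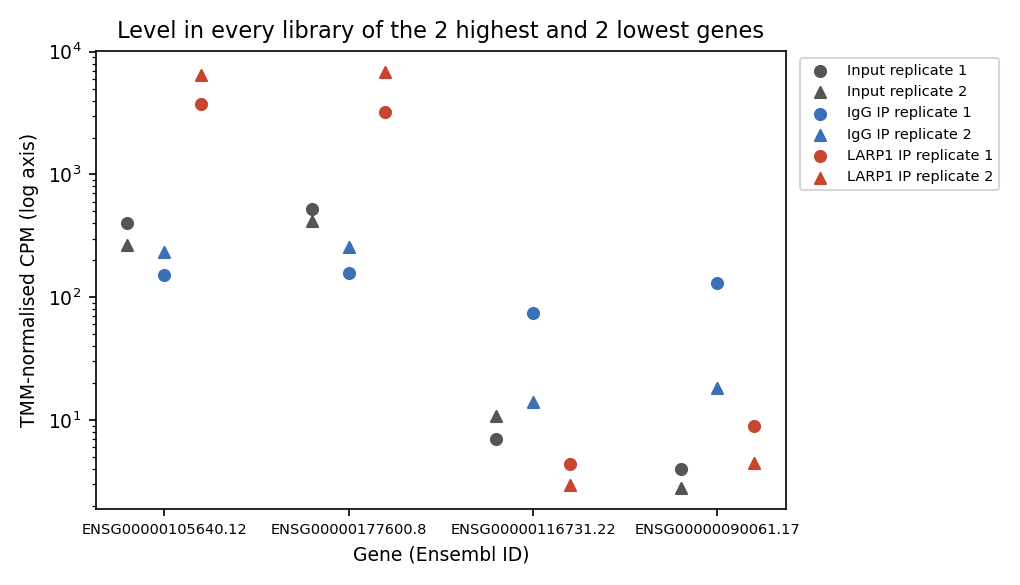
Level in each of the 6 libraries (vertical log axis, TMM-normalised CPM) of the 2 genes with the highest and the 2 with the lowest log2 fold change under the naming rule; circles are replicate 1 and triangles replicate 2. The LARP1 IP stands at 3251 to 6888 CPM for the 2 highest genes, and IgG replicate 1 stands apart at 74.6 and 132 CPM for the 2 lowest.

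The libraries of the groups did not overlap for 920 of the 921 higher genes and all 247 lower genes. Over all tested genes, 27.3% lay above and 25.9% below the control without overlap, so that separation is common with 2 libraries per group. The exception had 275 counts in LARP1 replicate 1 and 0 in LARP1 replicate 2, with 7 and 2 counts for control IgG and 13 and 0 for Input. Its call (log2 fold change 5.05 ± 1.48, SE; edgeR adjusted p = 0.0436) rests on 1 library. It was singled out after its values were seen.

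Some genes were counted with 1 antibody only. There were 57 genes with at least 10 counts over the LARP1 IP libraries and none in the IgG IP, 56 of them with counts in both LARP1 libraries. Against a floor of 3 counts over the IgG IP, the most enriched of them was at least 31.8-fold higher, and the median bound was 5.61. The filter left 11 of the 57 in the test. Their direction was fixed by how they were chosen, so their calls add nothing. In the other direction, 51 genes had at least 10 counts in the IgG IP and none in the LARP1 IP, with a median bound of 2.62-fold and at least 16.9-fold in the most extreme case. These bounds cover counting error only.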

How the data were processed

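RNA-seq libraries of RNA immunoprecipitates and Input were prepared with a stranded mRNA kit, leaving out the poly(A) selection step, per the labels' protocols. The authors deposited raw read counts per gene, 1 file per library, with no normalization or pooling. The submitters' processing notes name CASAVA 1.8, Bowtie2, TopHat2 2.1.1, featureCounts, Subread 1.20.6 and GRCh38. The annotation, strand setting and treatment of multi-mapping reads were not given in the sources used here, so counts of near-identical, overlapping or antisense genes may be shared.

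Of 60554 IDs, 36322 had no count. Genes were kept by filterByExpr (minimum count of 10), which left 10788 genes holding at least 99.7% of each library. Groups came from the sample titles. All 6 libraries entered one edgeR 4.0.16 fit (R 4.3.3; TMM, glmQLFit, glmQLFTest) by group alone (3 residual degrees of freedom). DESeq2 1.42.0, other scalings and filters, a fit of 4 libraries and leave-one-out fits were alternatives. Replicates differed by far more than sampling noise, with a chi-square per degree of freedom of 29.7 (IgG IP), 28.1 (LARP1 IP) and 4.73 (Input). This value grows with the counts of the genes, so it does not compare the relative spread of the groups. Input shares 1 estimate of spread with the IP groups in the fit.

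Named genes are the first 2 in each direction among genes past the threshold, at 10 CPM or more in the higher group, with no overlap between groups, by log2 fold change. The rule also asked for a symbol, which no ID had. The comparison, rule and lists were chosen with earlier results of these data known. The gene lists and the search for TOP starts need symbols and were not run.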

Additional observations from a re-analysis of the deposited data

How the results depend on the processing

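The 4 printed genes and the 2 most abundant genes kept their direction under every alternative run that tested them. DESeq2 (891 higher, 248 lower), upper-quartile factors, TMM without the 2 most abundant genes, no low-count filter and a minimum count of 50 kept both counts of calls within 1.5 times. Total counts gave 75 lower genes, the fit of 4 libraries 80, while scaling by counts outside the 2 most abundant genes, chosen after seeing the data, 333 higher and 4186 lower. Leaving out each library in turn, which takes a group's remaining library to vary as the other groups do, gave 578 to 977 higher and 65 to 307 lower genes. The most abundant gene (log2 fold change -1.71) and the second (-1.82) missed the threshold by edgeR without Input replicate 1, without Input replicate 2 and in the fit of 4 libraries. The bands of Input level, the ratios by library and the crossed ratios were also chosen after seeing the data. With 5 CPM added in place of 1, 87 genes exceeded 8-fold in the replicate 1 libraries and 86 of them did so in the replicate 2 libraries. The labels number the replicates but name no shared batch, and same-numbered LARP1 IP and IgG IP libraries deviated together from their group means (correlation 0.537), a hint from the data only. A replicate block by that number gave 1526 higher and 909 lower genes, with all 921 and 247 calls among them. Apart from construction (scaling, fewer samples, the block), the cause was not tested. The alternatives planned for gene lists and TOP starts were not run, since no ID could be named.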
